A study of Danio rerio with 12 samples.

Results

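Among the 149 gene names in the authors' deposited tables of differentially methylated fragments, a chosen set of 9 names of extracellular matrix and cell adhesion genes is described here, and each of the 9 was assigned 1 fragment. The tables hold further names of this kind, which are given after the 9. They hold 9 of the 153 distinct fragments and 11 of the 171 entries in the 3 tables, because the fragments of adamts9 and hapln3 were each listed in 2 comparisons. A fragment was taken when its assigned gene name equalled adamts9, hapln3, mgp, itgb1b, cdh7, and2, CDH12 (1 of 2), CDHR2 (2 of 2) or COL28A1 (4 of 4). A copy mark such as (1 of 2) is part of the deposited name and stands for 1 of several zebrafish genes given the same human name. These tables list only fragments that the authors put forward, and the members were chosen by their listed differences and p values. Every difference below is therefore a description, and no test was added.

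Methylation was measured by reduced representation bisulfite sequencing, which reads CpG-rich fragments cut by the enzyme MspI, in 12 libraries of AB strain zebrafish at 7 days post-fertilisation. Each library was made from a pool of 24 whole larvae, and 4 libraries each came from controls, from larvae kept in 50 µg/L triclosan and from larvae kept in 100 µg/L. Triclosan is an antibacterial agent of consumer products, and its solutions were partly renewed every day. No label ties the pools to clutches, so errors and p values measure the spread between these pools. In whole larvae, a change of methylation within cells and a change in the mixture of cell types cannot be told apart. Defining markers of cell types were not analysed here.

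The extracellular matrix is the network of collagens, proteoglycans and hyaluronan around cells. Integrins tie cells to it, cadherins tie cells to each other through calcium-dependent contacts, and secreted proteases remodel it. In larval zebrafish this machinery builds cartilage, fin folds and tissue boundaries. Most CpG sites of vertebrate genomes are methylated outside CpG islands, and the methylation level is the share of cytosines read as methylated, given here in percent. Differences are in percentage points, second group minus first. The standard error (SE) and the standard deviation (SD) between libraries are those implied by the F statistic of the authors' deposited table. This SD is pooled over both groups of a comparison and can differ from that of either group. The SE and the SD assume that F is the usual one-way statistic on unweighted library levels, which is not stated. Intervals are 95% t intervals from that SE. Per-library values and read depth were not analysed here.

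The 3 fragments inside their genes were those of hapln3, cdh7 and adamts9, and the other 6 lay outside. The hapln3 fragment (Zv9, chromosome 25, 19692813 to 19692858) lay on an exon, 1.55 kb inside the gene end that the table measures from. The intronic fragment of cdh7 (chromosome 2, 27161271 to 27161313) lay 3.18% of the way along the 85.6 kb gene from its lower coordinate. That of adamts9 (chromosome 11, 19601299 to 19601372) lay 37.6% along a gene of 60.8 kb, also on an intron. Among the members outside genes, and2 (chromosome 2, 31492587 to 31492663) was nearest at 8.09 kb, followed by COL28A1 (4 of 4) at 9.03 kb (chromosome 16, 50514986 to 50515091). The fragments of mgp (chromosome 3, 2186770 to 2186820) and itgb1b (chromosome 2, 46145686 to 46145739) lay 16.1 and 43.2 kb away. Those of CDHR2 (2 of 2) (chromosome 13, 53461847 to 53461918) and CDH12 (1 of 2) (chromosome 12, 41669048 to 41669189) lay 61.4 and 446 kb away. An assigned name at such a distance says which gene model was listed beside a fragment, and the tables hold no expression values. Of the members, 66.7% lay outside genes, beside 61.4% of all 153 listed fragments.

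**Figure D1:**
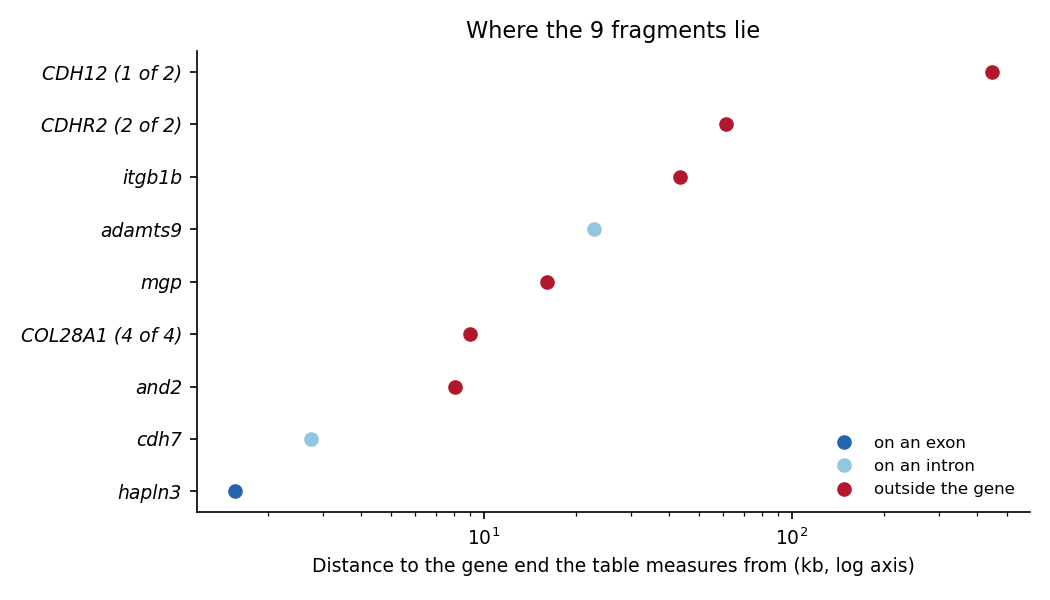
Distance in kb, on a log axis, from each of the 9 fragments to the end of its assigned gene from which the table measures, with colours for exon, intron and outside. The exonic hapln3 fragment lies at 1.55 kb and the CDH12 (1 of 2) fragment at 446 kb.

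The largest difference between control and 50 µg/L was at adamts9, whose protein is a secreted metalloprotease that cleaves large proteoglycans such as versican and aggrecan. Its intronic fragment had a control level of 87.9% in the authors' deposited table, against 47.4% at 50 µg/L and 80.6% at 100 µg/L, with 3 libraries in each group. Methylation was thus low at the lower dose and high in both other groups. The fragment is listed only in the 2 comparisons that include 50 µg/L, so which group stands out is tied to the listing. From control to 50 µg/L the difference was −40.6 points (SE 9.79, interval −67.8 to −13.4, unadjusted p = 0.0143 of the authors' F test in the deposited table). It had rank 1 by size among 55 entries, but rank 30 by p. From 50 to 100 µg/L it was 33.3 points (SE 9.77, interval 6.14 to 60.4, unadjusted p = 0.0272 of the authors' F test in the deposited table), with rank 2 by size and 71 by p among 99. The implied SD between libraries was 12.0 points in either comparison, and only 1 of the 171 entries had a larger one. Both comparisons share the same 50 µg/L level, so they are not separate measurements of it. Between control and 100 µg/L the levels differed by −7.32 points, with an interval of −45.7 to 31.1 points at the greatest SE the pair of F statistics leaves possible.

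The hapln3 fragment showed the other pattern across 3 groups. Its protein is a link protein, a class that locks proteoglycans of the aggrecan family onto hyaluronan. The authors' deposited tables give 77.3% in control, 80.9% at 50 µg/L and 56.5% at 100 µg/L, so it was low at the higher dose. The fragment is listed only in the comparisons that include 100 µg/L, so this pattern too is tied to the listing. The difference from control to 100 µg/L was −20.8 points (SE 5.70, interval −34.7 to −6.83, 4 libraries each, unadjusted p = 0.0108 of the authors' F test in the deposited table). From 50 to 100 µg/L the difference was −24.3 points (SE 3.14, interval −32.4 to −16.2, 3 and 4 libraries, unadjusted p = 0.000573 of the authors' F test in the deposited table). Between control and 50 µg/L the gap was 3.54 points, with an interval of −15.6 to 22.7 points by the same limit on the SE.

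The 2 hapln3 comparisons also bound the spread in each group, since all 4 libraries at 100 µg/L enter both. If F is the usual one-way statistic on library levels, the control libraries had an SD of at least 10.1 points. Those at 50 µg/L had an SD of at most 6.50 points and those at 100 µg/L of at most 5.31. The smaller SE against 50 µg/L therefore goes with a wider spread among the control pools. The interval from control to 100 µg/L pools the spread of both groups, although by these bounds it differed between them. How far this affects that interval and the F test was not tested. Levels of single pools were not analysed here.

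**Figure D2:**
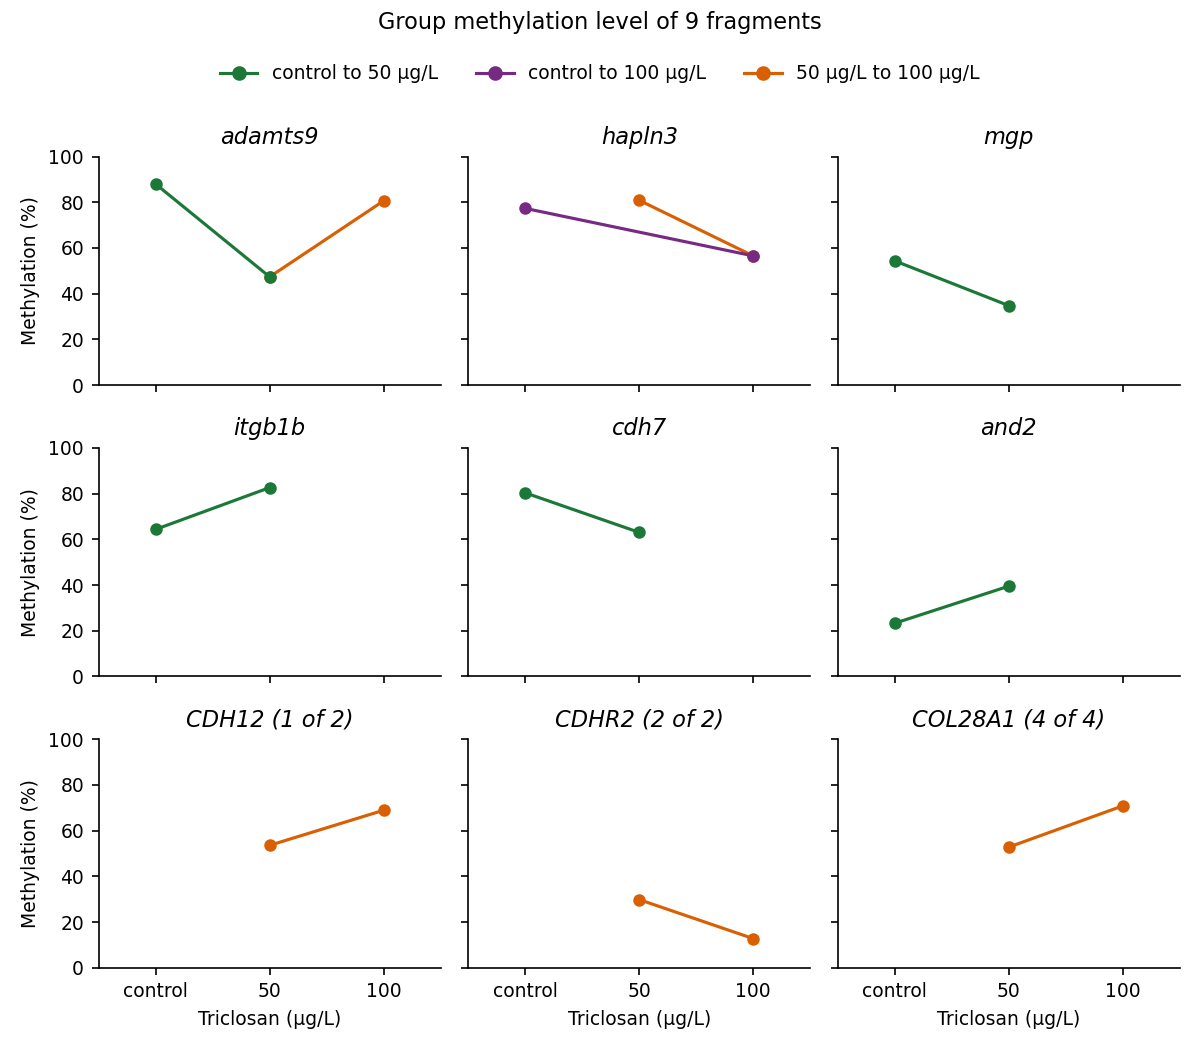
Group methylation level in percent for each of the 9 fragments (1 panel per assigned gene) in control, 50 and 100 µg/L triclosan, with a line for each comparison that lists the fragment. adamts9 is low at 50 µg/L (47.4%) and hapln3 at 100 µg/L (56.5%), and the other 7 fragments have levels in 2 groups.

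Matrix structure genes had 3 further fragments. The fragment assigned to mgp, whose protein inhibits calcification of cartilage and vessels, had, in the authors' deposited table, 54.4% in control and 34.8% at 50 µg/L. The difference of −19.6 points had an SE of 7.09 and an interval of −36.9 to −2.22, with 4 libraries in each group. The implied SD was 10.03 points, the third widest among the member entries after both of adamts9. The fragment assigned to and2, which encodes an actinodin, a protein of the fibres that stiffen the zebrafish fin fold, had, in the authors' deposited table, 23.3% in control and 39.5% at 50 µg/L. The difference was 16.2 points (SE 4.94, interval 3.51 to 28.9, 4 and 3 libraries). COL28A1 (4 of 4) bears the name of human type XXVIII collagen, and its fragment had, in the authors' deposited table, 52.8% at 50 µg/L and 70.9% at 100 µg/L. The difference was 18.1 points (SE 4.30, interval 7.00 to 29.1, 3 and 4 libraries). For these 3 fragments the level in the remaining group is not listed, so whether it lay near either value was not analysed here.

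Adhesion receptor genes had 4 fragments, of which 2 were listed from control to 50 µg/L and 2 from 50 to 100 µg/L. The fragment assigned to itgb1b, a beta1 integrin subunit that binds matrix proteins, had, in the authors' deposited table, 64.4% in control and 82.6% at 50 µg/L (18.3 points, SE 4.56, interval 6.56 to 30.0). The intronic fragment of cdh7, a classical cadherin, had 80.3% and 63.0% in the same groups of the authors' deposited table (−17.3 points, SE 5.25, interval −30.8 to −3.81). Both rest on 4 control and 3 low-dose libraries. The fragment assigned to CDH12 (1 of 2), named after a human cadherin of the brain, had, in the authors' deposited table, 53.6% at 50 µg/L and 68.9% at 100 µg/L (15.3 points, SE 4.67, interval 3.91 to 26.8, 4 libraries each). The fragment assigned to CDHR2 (2 of 2), whose human namesake joins the microvilli of the gut lining, had 29.8% and 12.8% in these groups of the authors' deposited table (−17.0 points, SE 5.90, interval −32.2 to −1.87, 3 and 4 libraries). Its 12.8% was the lowest of the listed member levels, which cover 2 of the 3 groups for 7 of the 9 members.

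**Figure D3:**
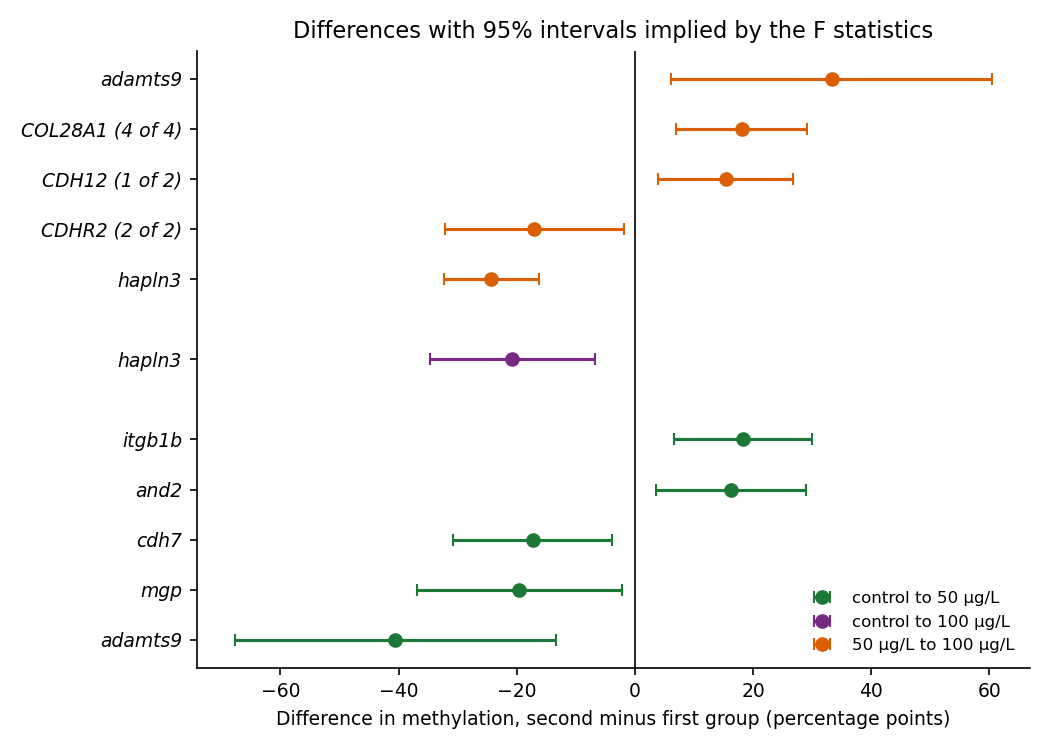
Difference in methylation in percentage points (points) with 95% t intervals implied by the F statistics (bars), for 11 entries of 9 fragments, coloured by comparison. The adamts9 intervals are the widest, at −67.8 to −13.4 and 6.14 to 60.4 points.

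Directions were mixed in both larger tables. From control to 50 µg/L, 2 of the 5 member entries were higher, beside 41.8% of all 55 entries. From 50 to 100 µg/L, 3 of the 5 were higher, beside 64.6% of 99. The single member entry from control to 100 µg/L was lower, in a table where 47.1% of 17 were higher. The members were chosen because these contrasts list them, so nothing is read from these shares. Unadjusted p of the authors' F test in the deposited table for control against 50 µg/L was 0.0102 for itgb1b, 0.0216 for cdh7, 0.0219 for and2 and 0.0329 for mgp. The tables against control hold no threshold or adjusted p.

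The table for 50 against 100 µg/L also holds a threshold for each rank of p. Of the 5 members there, hapln3 and COL28A1 (4 of 4) had p at or under it, beside 33.3% of all 99 entries. The threshold grows with rank, as at a level of 0.05 or, with double the number of tests, of 0.1, and which was used is not stated. At the level of 0.05 the Benjamini-Hochberg adjusted p of the authors' F test was at most 0.0151 for hapln3 and 0.0486 for COL28A1 (4 of 4). It was at most 0.0627 for CDH12 (1 of 2), 0.0690 for adamts9 and 0.0749 for CDHR2 (2 of 2), again from the authors' F test. At the level of 0.1 the values double, and hapln3 alone, at 0.0301, stays under 0.05 among the 5. COL28A1 (4 of 4) then reaches 0.0971, which is still under 0.1.

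Across the 11 entries the size of the difference had a median of 18.3 points (range 15.3 to 40.6), beside 17.1 over all 171 entries. The implied SD between libraries had a median of 6.87 points (range 4.11 to 12.0), beside 6.26 over all. The member with the smallest difference was CDH12 (1 of 2) at 15.3 points, just above the smallest difference in the tables, 15.0 points. Whether a minimum difference was required for listing, besides the test, was not analysed here. Such a cut would bound the sizes of members and of all entries alike. Only 3 of the 4 low-dose libraries entered 8 of the 10 member entries that use that group, beside 86.4% of such entries over the whole tables. The tables do not say which library was left out.

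**Figure D4:**
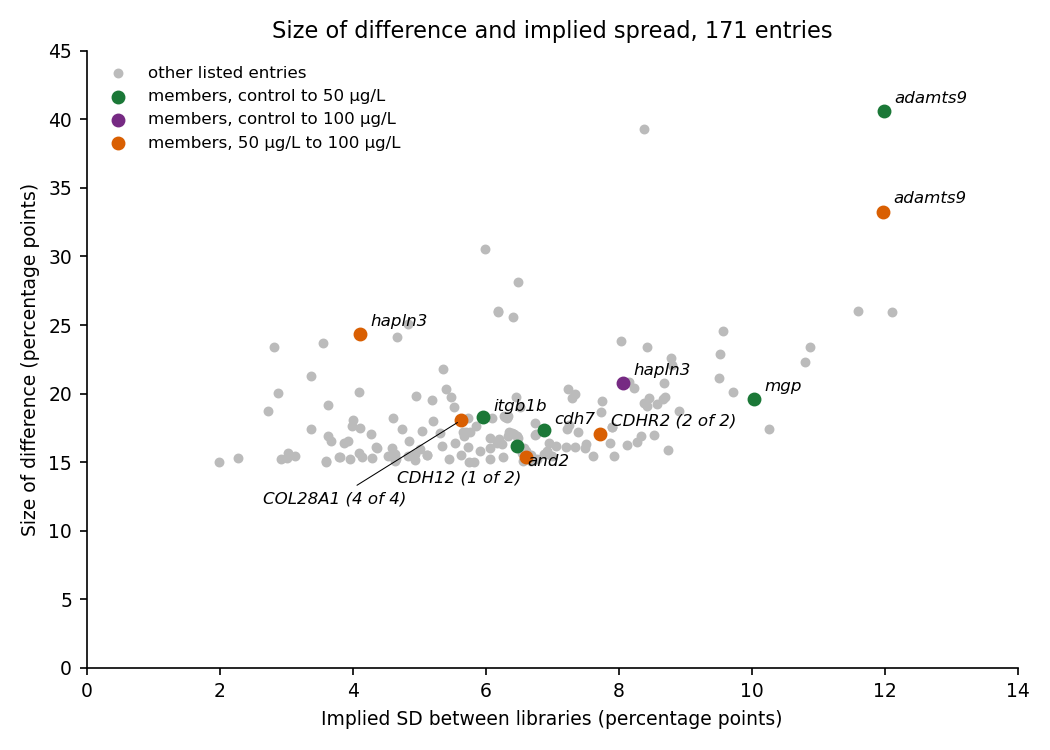
Size of the difference against the implied SD between libraries, both in percentage points, for all 171 entries, with members coloured by comparison. Both adamts9 entries lie at an SD of 12.0 points, and hapln3 lies at 4.11 points against 50 µg/L and 8.06 against control.

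The hapln3 fragment was also unlike the others in CpG density, a property that did not choose it. It has 9 CpG sites in 46 bp, or 19.6 per 100 bp, the highest density of the 153 listed fragments. It is also among the shortest, with 5 fragments of 46 bp or less, itself included. By number of sites it had rank 12, and CDH12 (1 of 2) also has 9 sites, in 142 bp. The next highest was 15.1 per 100 bp, and the median over all was 5.33. The mgp fragment had 11.8 per 100 bp, with 6 sites in 51 bp, and the other 7 members had 5.19 to 9.30. Despite its density, the hapln3 fragment lay 287 kb from the CpG island listed for it and was at 77.3% in control. The island listed for a member was nearest at and2, 4.48 kb away, and 0 of the 9 members lay inside one, beside 4 of all 153 fragments. Member fragments had a median length of 72 bp, beside 101 bp over all.

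**Figure D5:**
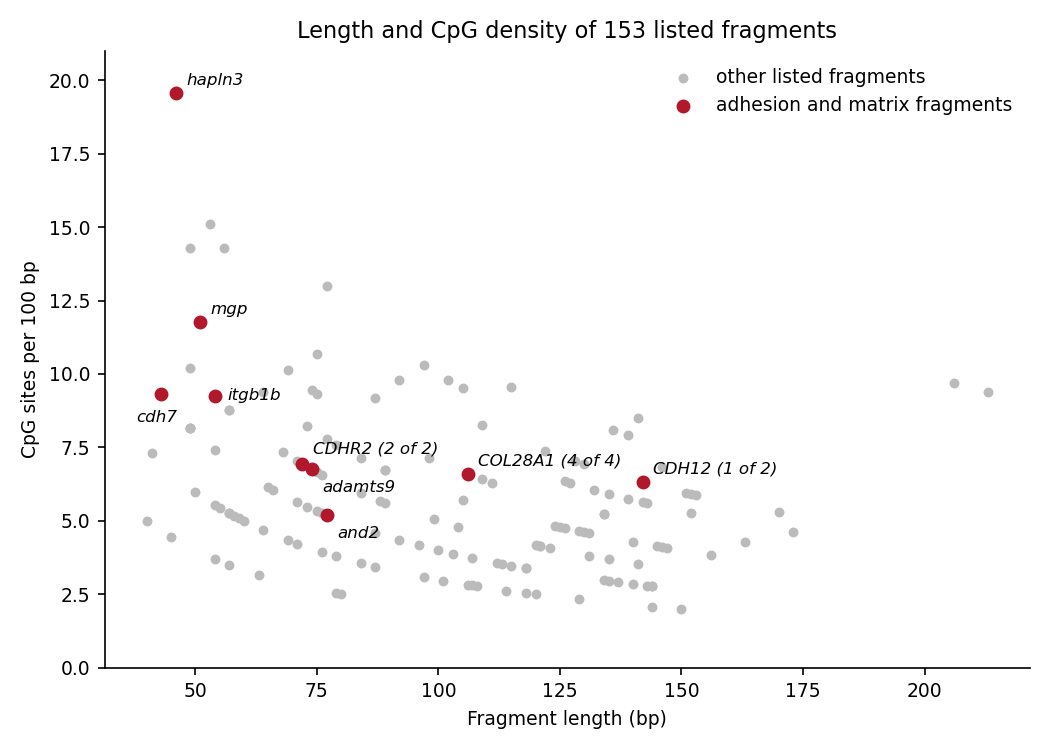
Number of CpG sites per 100 bp against fragment length in bp for the 153 distinct listed fragments, with the 9 adhesion and matrix fragments in red. hapln3 is the densest of all at 19.6 per 100 bp and mgp is second among the members at 11.8.

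Some of the assigned genes have related neighbours. All 6 members without a copy mark were matched to a current symbol or synonym in RefSeq's GRCz12tu gene table, cdh7 under its current name cdh7a. Only protein-coding genes were taken as neighbours, by order of position and without regard to distance. In that table hapln3 lies next to acanb, which encodes aggrecan, the proteoglycan that link proteins bind, and to mfge8b. There mgp lies next to pde6hb and to bglap, the gene of osteocalcin, another calcium-binding Gla protein of bone. Beside adamts9 lie rhol and LOC141376589, beside cdh7a si:dkey-181m9.8 and dsela, and beside and2 ralyl and retreg1. The neighbours of itgb1b are itgb1b.2, a second copy, and nrp1b, a neuropilin gene. Which gene the fragment 43.2 kb from itgb1b belongs with was not tested, nor was it for the other fragments outside genes. Neighbours were taken from another build than the fragments, so their order beside the fragments themselves was not analysed here. Whether listed fragments cluster at the members was not tested. The nearest other listed fragment lay 77.1 kb from that of adamts9 and 235 kb from that of CDHR2 (2 of 2), and at least 757 kb from each of the other 7.

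A wider list of symbols was also searched. It holds matrix proteins with their enzymes and receptors, cadherins and protocadherins, integrins, and immunoglobulin-type and synaptic adhesion molecules, and it added 6 fragments to the 9. From control to 50 µg/L it added pcdh17 and cadm4 upwards and PCDH9 and fbln1 downwards. The intronic fragment of cadm4, an immunoglobulin-type adhesion molecule, had, in the authors' deposited table, 46.8% in control and 62.0% at 50 µg/L (SE 4.16). The fragment 33.4 kb from fbln1, the gene of the matrix glycoprotein fibulin-1, had 39.9% and 24.5%, per the authors' deposited table (SE 3.10). The fragments assigned to the protocadherin genes differed by 17.4 points at pcdh17 (SE 2.75) and −17.5 at PCDH9 (SE 3.14), per the authors' deposited table. They lay outside these genes, 27.7 kb from pcdh17 and 257 kb from PCDH9. From control to 100 µg/L the list added nlgn1, a synaptic adhesion gene. Its assigned fragment, 138 kb outside the gene, was 15.1 points higher (SE 3.54), per the authors' deposited table. Between both doses it added an intronic fragment of dag1, which encodes the laminin receptor dystroglycan, with, in the authors' deposited table, 35.2% at 50 µg/L and 52.1% at 100 µg/L (SE 5.89), with p above the threshold for its rank. In all, 9 of the 17 entries on the wider list were higher in the second group and 8 were lower. By comparison, 4 of 9 were higher from control to 50 µg/L, beside 41.8% of all 55 entries. They were 4 of 6 from 50 to 100 µg/L, beside 64.6% of 99. Control to 100 µg/L had 1 of 2, beside 47.1% of 17. Nothing is read from these shares.

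Only 18 of the 153 listed fragments have levels in all 3 groups, among them adamts9 and hapln3. They have them because 2 comparisons list each, so the levels compared here are those by which the fragments were listed. Likeness between such profiles is a description, and nothing is read from it. With each level taken minus the mean of its 3, the fragment closest to adamts9 was that of slc22a5, a carnitine transporter gene, at a distance of 12.1 points. The authors' deposited tables give it 56.6% in control, 30.6% at 50 µg/L and 48.9% at 100 µg/L. RNF207 (2 of 2) was next at 14.6 points. Closest to hapln3 were ptger4b, a prostaglandin receptor gene, at 11.2 points, and C1H11orf73 at 14.02. The ptger4b fragment stood out at 50 µg/L, with 71.8%, 88.8% and 65.0% in the authors' deposited tables. So did that of C1H11orf73, with 34.0%, 49.1% and 33.0% there, whereas hapln3 stood out at 100 µg/L. Each distance was taken over 17 other fragments.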

How the data were processed

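Per the labels, DNA from pooled larvae was cut with MspI, fragments of 40 to 220 bp were selected and single-end reads of 100 bp were made. The build was Zv9, per the submitters' processing notes, with aligner, caller and coverage minimum not given in the sources used here, and depth is unknown. The authors deposited 3 tables of group methylation levels as a fraction, with F statistics and unadjusted p-values. Columns were read by position, since 1 header is shifted. In 171 of 171 entries the listed difference equalled the gap between levels within 0.01 points, and the degrees of freedom were 2 below the number of libraries. The SE is the difference divided by the square root of F, and the SD follows from it and the library numbers. The calculation was tested on simulated data without selection, whereas the entries were selected by the authors. How that selection affects the intervals was not tested. The planned permutation tests could not be run without values per library. Adjusted p values take the 99 listed p as the lowest of 184 tests (level 0.05) or 368 (level 0.1), as the threshold implies. They are upper limits for these numbers of tests only. Whether more fragments were tested is not stated, and over more tests the adjusted p could be higher. Marks of 5' and 3' went with the lower and higher gene coordinate in 171 entries, and the strand of a gene was not used. All members, all fragments on a wider adhesion and matrix list and the 2 closest profiles to each member with 3 levels are named. Members and lists were chosen with earlier results of these data known. Python 3.11.15, pandas 2.3.3, numpy 2.4.6, scipy 1.17.1 and matplotlib 3.10.9 were used.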

Additional observations from a re-analysis of the deposited data

How the results depend on the processing

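The 11 member entries were 9 when each fragment was counted once. They were 4 with a difference of at least 20 points (20.5% of all 171 entries passed) and 2 with p at most 0.01 (36.8% of all). They were 7 inside the gene or within 10 kb of it (49.1% of all). With all 4 libraries used in both groups they were 3 (14.6% of all), and with the wider list 17. All 4 entries of at least 20 points were those of adamts9 and hapln3, each listed in 2 comparisons that share a group. The same 4 entries are among the 7 inside or near genes. These counts are thus of entries and not of separate fragments, and nothing is read from them. At a threshold level of 0.1, with double the number of tests, 1 member and not 2 had an adjusted p of at most 0.05 between both doses (hapln3). The threshold per rank is the same at either level, so the same 2 members lie at or under it. At the level of 0.1 both also have an adjusted p under 0.1. All 11 intervals excluded 0 with t or normal quantiles, as did 168 and 171 of all 171 entries. For the members this was fixed in advance, since the t interval restates the authors' F test and the normal quantile is smaller. No paired analysis was possible because the tables hold group levels and no values per library. For the same reason leaving out each replicate was not run. Unknown read depth limits every level.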

Other observations

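Beyond both lists, 2 further fragments were assigned to matrix genes, chosen after their values were seen. The intronic fragment of cilp2, named after a cartilage matrix protein, was at 36.3% in control and 17.1% at 50 µg/L (SE 6.55) in the authors' deposited table. The fragment 150.5 kb from EMILIN2 (2 of 2), named after a glycoprotein of elastic fibres, was at 62.7% at 50 µg/L and 79.6% at 100 µg/L (SE 6.51) in the authors' deposited table, with p above the threshold for its rank.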
